A study of Mus musculus with 22 samples.

Results

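Skeletal muscle fibre genes were followed in the count table of white adipose tissue (WAT) of mice. The members were the rows of 36 named genes, chosen by name among the 47643 rows of the table. Of these, 14 are typical of fast fibres, 9 are typical of slow fibres, and 13 are used by both fibre types. All 36 had a mean normalised count above 10 over the 12 libraries and were tested. The animals were male wild-type mice of the C57BL/6J strain, 8 weeks old. The 4 control libraries came from mice made hypothyroid by 2 weeks of PTU (propylthiouracil, which blocks the synthesis of thyroid hormone). A further 4 libraries came from mice given thyroid hormone (TH) and sampled 6 h later, and 4 from mice sampled 24 h after TH. The sample labels of the TH libraries do not mention PTU. The series design and the overview of the study describe them as PTU-fed mice that received a single injection of T3 and T4. The fat depot is not named in the labels, and whether a library is 1 mouse or a pool is not stated, so the spread between libraries may be partly technical.

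A skeletal muscle fibre is built from sarcomeres, in which myosin motors pull on actin filaments. Fast and slow fibres use different gene copies for the same parts, such as the myosin heavy chains, the light chains, and the 3 troponin subunits that switch contraction on with calcium. Slow fibres are rich in mitochondria and myoglobin, and fast fibres rely on glycogen and rapid calcium pumping. Thyroid hormone is known to favour fast isoforms in muscle and to lower the slow myosin gene Myh7. White adipose tissue is made of adipocytes and supporting cells and is not known to contain such fibres.

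Promoter sequences of members that stand for the main contrast are shown first, taken from RefSeq on GRCm38.p6 and running from 250 bases before to 50 bases after the start of the transcript. Troponin C has a fast gene, Tnnc2, and a slow gene, Tnnc1, whose ratio is described with the other troponins. Mylpf is the fast regulatory light chain, and Tnnt1, the slow troponin T, was among the slow members with the lowest levels at 24 h. Each is written 5′ to 3′ on the strand of its gene, with E-boxes in capitals (CANNTG, the letters read by muscle regulators of the MyoD family).
Tnnc2 (chr2:164779685-164779984, minus strand): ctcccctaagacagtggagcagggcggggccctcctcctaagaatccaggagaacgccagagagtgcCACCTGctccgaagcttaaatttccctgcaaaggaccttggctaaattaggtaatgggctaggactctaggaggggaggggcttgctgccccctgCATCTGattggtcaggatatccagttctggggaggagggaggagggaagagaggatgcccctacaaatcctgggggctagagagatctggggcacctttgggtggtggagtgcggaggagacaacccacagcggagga
Tnnc1 (chr14:31208062-31208361, plus strand): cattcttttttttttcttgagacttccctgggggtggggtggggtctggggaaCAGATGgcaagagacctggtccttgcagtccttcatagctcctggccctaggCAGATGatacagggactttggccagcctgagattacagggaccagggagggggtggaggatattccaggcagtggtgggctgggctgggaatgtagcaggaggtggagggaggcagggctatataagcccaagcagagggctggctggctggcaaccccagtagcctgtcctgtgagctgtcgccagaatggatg
Mylpf (chr7:127211358-127211657, plus strand): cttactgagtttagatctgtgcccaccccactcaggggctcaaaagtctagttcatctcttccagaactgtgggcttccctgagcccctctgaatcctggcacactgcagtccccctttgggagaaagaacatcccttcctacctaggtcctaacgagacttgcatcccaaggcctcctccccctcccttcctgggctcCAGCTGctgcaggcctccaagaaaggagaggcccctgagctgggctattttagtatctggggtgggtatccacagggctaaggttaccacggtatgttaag
Tnnt1 (chr7:4515926-4516225, minus strand): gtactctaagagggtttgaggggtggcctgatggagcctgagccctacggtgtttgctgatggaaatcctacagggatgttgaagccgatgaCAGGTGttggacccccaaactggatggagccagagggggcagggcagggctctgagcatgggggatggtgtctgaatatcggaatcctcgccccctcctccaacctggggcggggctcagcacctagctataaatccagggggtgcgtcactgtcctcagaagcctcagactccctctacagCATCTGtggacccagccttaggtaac
The promoter table used here matched 28 of the 36 members. An E-box was present in 8 of 10 fast, 9 of 9 slow and 8 of 9 shared genes, while 72.3% of all 32851 promoters of this length held one. The MCAT letters CATTCC, on either strand, were found in 4 of 10 fast, 3 of 9 slow and 3 of 9 shared genes, against 14.7% of all promoters. The letters AGGTCA, a core element read by thyroid hormone receptors, was found in 1 of 10 fast, 1 of 9 slow and 3 of 9 shared genes, against 16.3% of all promoters. These letter counts describe the window and do not show binding.

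The libraries held 17.3 to 26.96 M counts. Counts of the 36 members made up 0.0141% of a library at the lowest and 3.42% at the highest. Adipocyte markers were abundant throughout, with a summed level of 11230 to 22750 CPM (counts scaled to a common library size) for 6 markers. The label of skeletal muscle was checked with 12 muscle genes that are not members, among them Cacna1s (the voltage sensor of the fibre), Trdn, Jph1 and Myom1. All 12 had at least 1 count in every library. Markers of heart muscle were low. Nppa and Myl7 had at most 1 count in a library, and Tnnt2, Tnni3 and Mybpc3 stayed at or below 49.2 normalised counts. Myh6 and Actc1, heart genes that skeletal muscle can also express, rose with the muscle genes.

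The first pattern was a muscle content that 35 of the 36 members followed and that differed strongly between libraries of one group. Muscle content is used here as the mean log2 CPM of the 12 non-member muscle genes. In the PTU libraries it was 4.86, 0.15, 0.12 and 5.78. At 6 h it was 1.19, -0.72, 3.45 and 0.19, and at 24 h it was 3.98, 4.79, 2.31 and 3.07. The lowest and the highest library thus differed 90.4-fold. PTU replicates 1 and 4 were rich in muscle transcripts and replicates 2 and 3 were poor, so the PTU group spanned nearly the whole range. At 6 h only replicate 3 was rich, whereas all 4 libraries at 24 h were above 2 on this scale. In bulk tissue, fewer muscle cells and less RNA per muscle cell cannot be told apart.

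**Figure D1:**
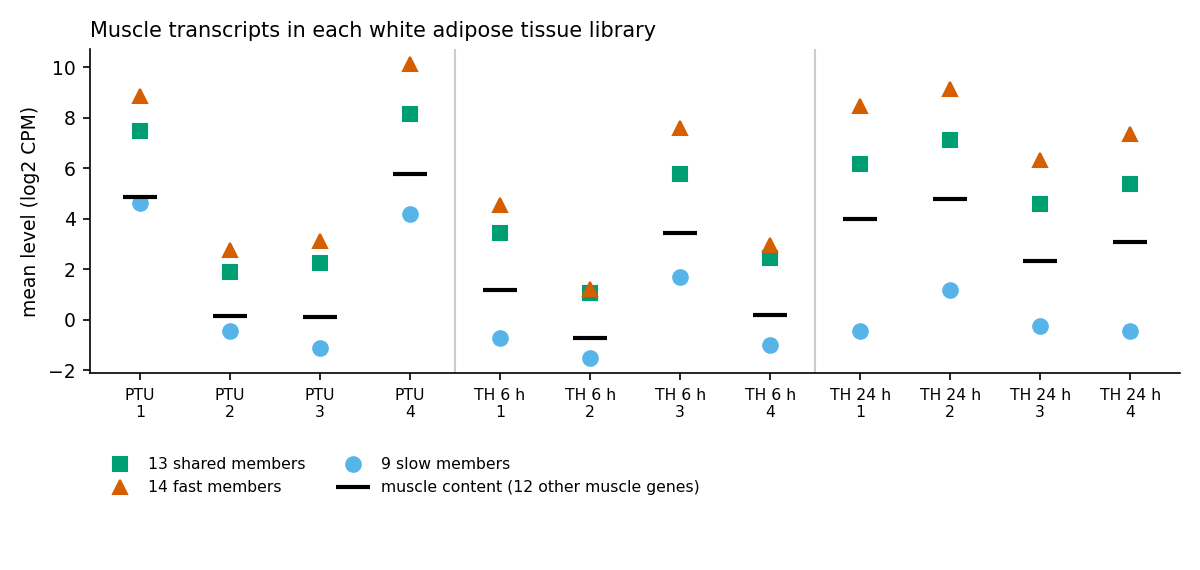
Mean level (log2 CPM) of the 14 fast, 9 slow and 13 shared members and of the 12 other muscle genes (muscle content), 1 symbol of each kind per library. Fast and shared members followed the muscle content in every group, whereas the slow members lay farther below it in the 24 h libraries, where fast members exceeded slow members by 6.57 to 8.91.

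Shared members traced this content. Acta1, the skeletal muscle actin, had 48880, 577, 1162 and 127300 normalised counts under PTU. It had 2927, 377, 20140 and 1016 at 6 h and 35420, 63270, 8969 and 16960 at 24 h. The groups overlapped, and 2 PTU libraries were at least as rich as most 24 h libraries while the other PTU libraries were among the poorest. Ckm, the creatine kinase of muscle, ran from 84.5 to 74290 normalised counts, an 880-fold span. Ryr1, the calcium release channel, spanned 152-fold, the giant sarcomere proteins Neb and Ttn spanned 200-fold and 217-fold, and Mb (myoglobin) spanned 234-fold. Pygm, the glycogen phosphorylase of muscle, spanned 231-fold, and the Z-disc genes Tcap and Myot spanned 687-fold and 870-fold. With the content as a numeric term beside the groups, 35 of 36 members rose with it (edgeR, adjusted p from 3.99e-10 to 0.016 among those called). Of all 17928 genes tested, 2.1% did so. The median slope of the members was 1.27 log2 units per log2 unit of content.

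Some members followed the muscle content less steeply. Myom3, an M-band protein, was the member that did not pass this test, with a slope of 0.14 ± 0.07 (SE, adjusted p = 0.64) and a span of 5.38-fold between 56.3 and 303 normalised counts. Myl1, the fast alkali light chain, had a slope of 0.74 and 901 normalised counts in the library poorest in muscle, where Acta1 had 377. Eno3, an enolase of muscle, had a slope of 0.92 and 197 normalised counts in that library. Casq2, the calsequestrin of slow and heart muscle, had the lowest slope among those called, 0.28. The cells that gave these transcripts were not tested.

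Compared without the content term, the fast members did not separate the groups. At 6 h against PTU, 0 of 14 fast members passed, 1 of 14 had an unadjusted p under 0.05, and DESeq2 called 0. Their changes ran from -3.48 to -2.28 on the log2 scale, with standard errors of 0.99 to 1.72. At 24 h against PTU, 0 of 14 passed, 0 had an unadjusted p under 0.05 and DESeq2 called 0, with changes from -0.99 to -0.10. Of the 13 shared members, 0 passed at either time, with 5 and 1 at an unadjusted p under 0.05, and DESeq2 called 0 at 6 h and 1 at 24 h. At 24 h against 6 h, 0 of 36 members passed and 1 had an unadjusted p under 0.05, and DESeq2 called 0. Fast members were then 1.75 to 2.59 higher, the largest being Actn3 with 2.59 ± 1.63 (SE). Over all genes tested, 7.23% were called at 6 h against PTU, 17.1% at 24 h against PTU and 7.41% between the TH times.

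Every edgeR call of a member without the content term was of a slow member. At 6 h against PTU, 7.23% of all genes and 1 of the 36 members were called in edgeR. This was 1 of 9 slow members (Casq2, lower). All 9 had an unadjusted p under 0.05 there, and DESeq2 called 4, all lower. At 24 h against PTU, 4 of 9 slow members were lower, Tnnt1, Tnni1, Myl2 and Casq2, where 17.1% of all genes were called. They were the only edgeR calls among the 36 members. There 7 of the slow members had an unadjusted p under 0.05, and DESeq2 called 5, all lower. The share of all genes called by DESeq2 is not given here. Tnnt1, the slow troponin T, had 557, 15.6, 10.8 and 448 normalised counts under PTU, 7.83, 4.83, 66.4 and 4.93 at 6 h, and 9.65, 15.5, 10.6 and 3.32 at 24 h. Its change at 24 h was -4.69 ± 1.29 (SE, adjusted p = 0.0256). All 4 libraries at 24 h were as low as the PTU libraries that were poor in muscle, although their lowest Acta1 level, 8969 normalised counts, was above the 577 and 1162 of those PTU libraries. Tnni1, the slow troponin I, had 262, 7.18, 1.81 and 218 normalised counts under PTU, 5.59, 4.83, 31.1 and 4.93 at 6 h, and 4.82, 11.6, 6.37 and 7.75 at 24 h, a change of -3.97 ± 1.19 (adjusted p = 0.0378). Myl2, the slow regulatory light chain, had 953, 8.38, 0.9 and 697 normalised counts under PTU, 6.71, 2.41, 79.3 and 1.64 at 6 h, and 1.93, 20.4, 8.49 and 0 at 24 h. Its change of -5.70 ± 1.71 (adjusted p = 0.0378) was the largest of any member at that time, as was its change of -4.27 ± 1.52 (adjusted p = 0.108) at 6 h. The calls of Tnnt1, Tnni1 and Myl2 in this comparison each ended when PTU replicate 4 or any 1 of the 24 h libraries was left out, with adjusted p up to 0.0967, and those of Tnni1 and Myl2 also ended without PTU replicate 1. The count of 4 fell to 1 without PTU replicate 4 or any 1 library at 24 h, and to 2 without PTU replicate 1.

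Casq2 behaved differently from the other slow members. It had 194, 57.5, 49.6 and 130 normalised counts under PTU, 25.7, 15.3, 33.2 and 23.0 at 6 h, and 23.2, 26.2, 15.9 and 33.2 at 24 h. All PTU libraries were above all TH libraries, whether rich or poor in muscle. The change was -2.16 ± 0.43 (SE, adjusted p = 0.0104) between 6 h and PTU, and -2.13 ± 0.43 (SE, adjusted p = 0.00545) between 24 h and PTU, and both calls held when any 1 library was left out. Casq2 was also the only member whose PTU and TH libraries did not overlap, at 6 h and at 24 h, where 13.9% and 19.3% of all genes did not overlap. Between the TH times 21.8% of genes did not overlap, and among the members 1 shared gene did not, Myom3 with 147 to 228 normalised counts at 6 h and 56.3 to 128 at 24 h. Pln (phospholamban), which restrains the calcium pump in slow and heart muscle and is not a member, had 20.2, 62.3, 43.3 and 23.4 normalised counts under PTU and 8.49 to 18.8 at 24 h. It was lower at 24 h, with a change of -1.28 ± 0.40 (adjusted p = 0.0476). Smooth muscle markers, of which 0 of 7 were called at 24 h (edgeR), included Des, which rose with muscle content. Without Des the other 6 summed to 147.7 to 238 CPM under PTU, 175 to 250.4 at 6 h and 160.3 to 227 at 24 h, and their part in the change of Casq2 was not tested.

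When the muscle content entered the model, fast and slow members parted at 24 h. Against PTU, 8 of 9 slow members were lower and 0 were higher, where 9.12% of all genes were lower. Of the fast members 2 of 14 were higher, and of the shared members 1 of 13, where 7.41% of all genes were higher. The median change was -2.48 for slow, 0.60 for fast and 0.09 for shared members, and 0.01 for all genes tested. Myl2 changed by -4.91 ± 0.72 (adjusted p = 0.000825), Tnnt1 by -4.14 ± 0.44 (9.04e-05), and Tnni1 by -3.34 ± 0.51 (0.00116). Myh7, the slow myosin heavy chain, changed by -2.84 ± 0.47 (0.00196) and Tnnc1, the slow troponin C, by -2.48 ± 0.57 (0.0124). Myoz2, a Z-disc protein of slow and heart muscle, changed by -2.28 ± 0.56 (0.0166), Casq2 by -2.18 ± 0.25 (0.000174), and Myl3, the slow essential light chain, by -1.95 ± 0.50 (0.0203). Mybpc1, the slow myosin-binding protein C, did not pass, with -0.92 ± 0.49 (0.225). The calls of Myl3 and Myoz2 ended without PTU replicate 1 (adjusted p of 0.0634 and 0.0656), and the other 6 held in all 12 fits that left out 1 library. The count of 11 members called in either direction rose to 17 without PTU replicate 3.

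The members that rose in this model were Myh4, Casq1 and Pygm. Myh4, the fastest myosin heavy chain of limb muscle, rose by 1.00 ± 0.31 (adjusted p = 0.0461), Casq1, the calsequestrin of fast fibres, by 0.76 ± 0.23 (0.0396), and Pygm by 0.51 ± 0.13 (0.0188). These were small beside the changes of the slow members, and 8 of 14 fast members had an unadjusted p under 0.05. The call of Myh4 ended in 7 of the 12 fits that left out 1 library (PTU replicates 1, 2 and 4, replicate 1 at 6 h, and replicates 1, 3 and 4 at 24 h), with adjusted p up to 0.16. That of Casq1 ended in 9 of 12, all but those without replicates 2 and 3 at 6 h and replicate 2 at 24 h, with adjusted p up to 0.106. That of Pygm ended without replicate 1 at 24 h (0.47, adjusted p = 0.0518). With content taken from Acta1 alone the changes of Myh4, Casq1 and Pygm were 0.40, 0.17 and 0.02 and were not called. Myl1, at -0.23 ± 0.26 (adjusted p = 0.566), was the fast member that did not lie above 0.

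**Figure D2:**
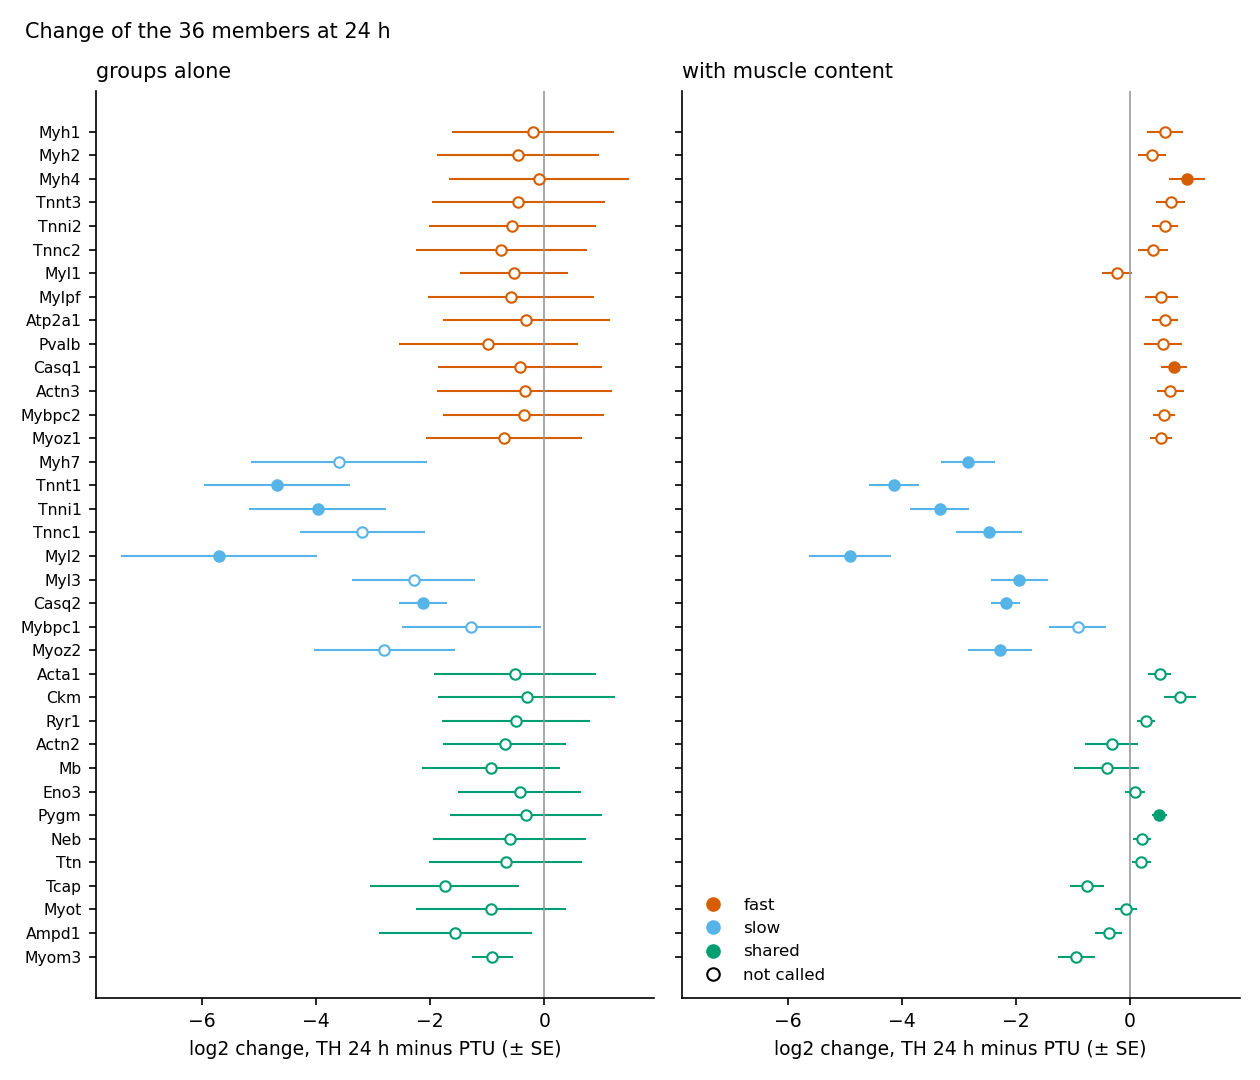
Log2 change of each member at 24 h against PTU, with its standard error, in the model of the groups alone (left) and with muscle content as a further term (right). Filled symbols were called. On the left the fast members lie between -0.99 and -0.10 with wide errors, and on the right 13 of 14 lie above 0 while all 9 slow members lie below 0.

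At 6 h the content model called Casq2 alone, with -1.54 ± 0.27 (adjusted p = 0.00524). The other 8 slow members had values from -1.33 to -0.15 and 0 of them passed in edgeR, with 1 at an unadjusted p under 0.05 (Tnnt1). DESeq2 called 2 slow members there. Of all genes, 3.51% were higher and 3.08% were lower. Between the TH times, 3 of 9 slow members were lower at 24 h than at 6 h, where 2.04% of all genes were lower and 1.13% were higher. These were Myl2 with -3.87 ± 0.84 (adjusted p = 0.0279), Tnnt1 with -2.82 ± 0.52 (0.0126) and Myh7 with -2.12 ± 0.52 (0.0498). Each of these 3 calls ended when replicate 3 of the 6 h group, its only library rich in muscle, was left out (adjusted p of 0.383, 0.188 and 0.699). In fits that left out 1 library the call held in 11 of 12 for Tnnt1, 8 of 12 for Myl2 and 2 of 12 for Myh7. The count of 3 was 1 without replicate 1, 2 or 4 of the 24 h group, and 5 without PTU replicate 1.

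Ratios within a library compare fast and slow counterparts without a fitted content term, and depth cancels in them. Muscle content need not cancel. The median slope on content was 1.34 for fast and 0.97 for slow members. Single slopes were 1.385 for Tnnt3 and 0.973 for Tnnt1, but 1.434 for Myh4 and 1.397 for Myh7. All libraries at 24 h had a content above 2, whereas PTU replicates 2 and 3 and replicates 1, 2 and 4 at 6 h did not. For 11 pairs of counterparts the log2 ratio of counts was compared between groups by an exact two-sided permutation test, in which 4 against 4 libraries cannot give a p below 0.0286. At 24 h against PTU the mean ratio was higher in 9 of 9 pairs of a fast with a slow member, by 1.75 to 5.38 on the log2 scale (3.35-fold to 41.7-fold). The other pairs, Actn3 over Actn2 and Myh4 over Myh2, do not have a slow denominator. The groups did not overlap in 5 of them, each with the smallest p the design allows (0.0286, and 0.0943 after adjustment over 33 tests). Since 0 of the 33 tests passed the adjusted threshold, with 10 at an unadjusted p of 0.0286, the ratios are reported with their raw values.

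Among the troponins, Tnnt3 and Tnnt1 are the fast and slow tropomyosin-binding subunits. Their ratio was 37.3, 13.8, 30.3 and 124 under PTU, 122, 13, 139 and 61.8 at 6 h, and 1760, 1650, 330 and 2070 at 24 h. Every 24 h library was above every other library, with a mean difference to PTU of 4.99 ± 0.90 (SE) log2 units (exact p = 0.0286). Tnni2 and Tnni1, the inhibitory subunits, had ratios of 48.0, 18.7, 123 and 181 under PTU, 128, 13.5, 177 and 44.7 at 6 h, and 1990, 1420, 342 and 652 at 24 h, a difference of 3.74 ± 0.93 (exact p = 0.0286). Tnnc2 and Tnnc1, the calcium-binding subunits, had ratios of 33.4, 24.8, 46.1 and 144 under PTU, 68.7, 3.61, 83.5 and 9.76 at 6 h, and 709, 767, 88.9 and 320 at 24 h. Replicate 3 at 24 h lay within the PTU range, and the difference of 2.87 ± 0.91 had an exact p of 0.0571, whereas 24 h and 6 h did not overlap (4.06 ± 1.32, exact p = 0.0286). That pair overlapped with 5 added to the counts (3.98) or with a linear fit on content removed (2.16).

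Among the myosin light chains, Mylpf and Myl2 are the fast and slow regulatory chains. Their ratio was 11.1, 15.1, 188 and 47.5 under PTU, 111, 15.9, 55.3 and 88.2 at 6 h, and 3860, 671, 248 and 7090 at 24 h. Every 24 h library was above every other library (5.38 ± 1.45 against PTU, exact p = 0.0286). With a linear fit on content removed, PTU and 24 h overlapped (5.10), and the highest value rests on a Myl2 count of 0. The highest PTU value, 188, rests on a Myl2 count of 1. Myl1 and Myl3, the alkali chains, had ratios of 40.7, 165, 252 and 251 under PTU, 650, 249, 170 and 251 at 6 h, and 1890, 346, 248 and 329 at 24 h. These groups overlapped, with a difference of 1.75 ± 0.91 (exact p = 0.0857).

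**Figure D3:**
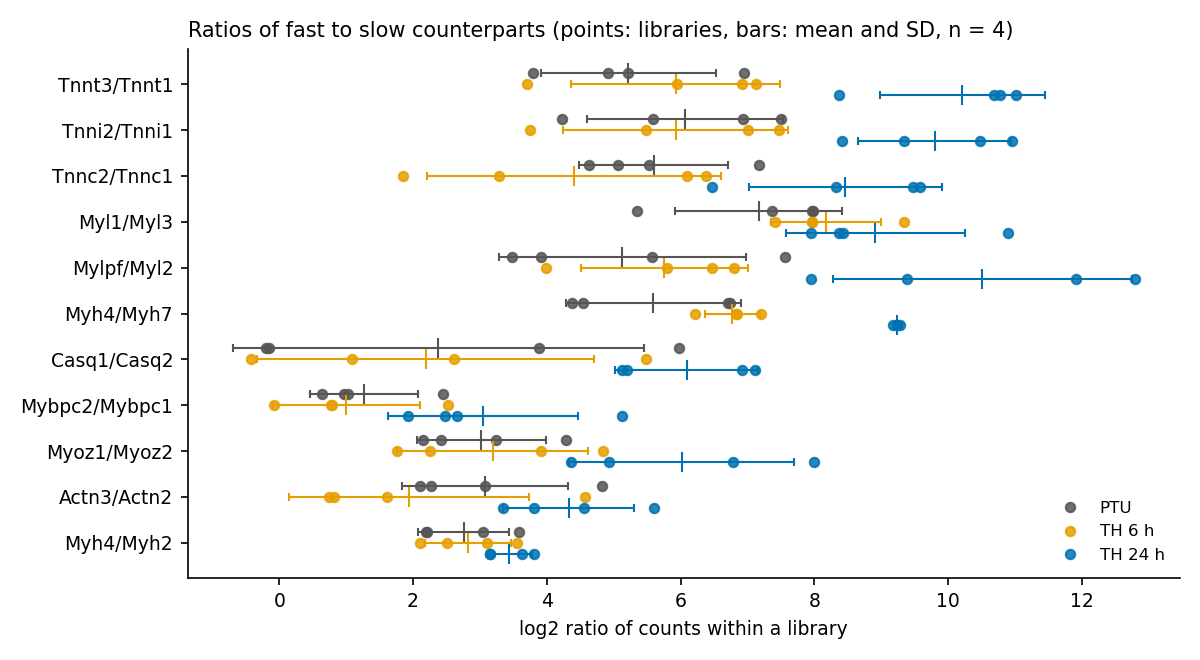
Log2 ratio of counts of 11 pairs in each library (points), with the mean and SD of each group of 4 libraries. The 24 h libraries lie above all other libraries for Tnnt3/Tnnt1, Tnni2/Tnni1, Mylpf/Myl2 and Myh4/Myh7, while PTU and 6 h overlap for every pair.

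Among the myosin heavy chains, Myh4 over Myh7 compares the fastest with the slow motor. The ratio was 23.4, 20.8, 104 and 107 under PTU, 147, 74.1, 113 and 115 at 6 h, and 600, 580, 603 and 621 at 24 h. The 24 h libraries did not overlap with the others and lay close together (9.23 ± 0.04, SD, n = 4, log2), although their muscle content spanned 2.31 to 4.79. The difference was 3.64 ± 0.65 (SE) to PTU and 2.46 ± 0.21 to 6 h (exact p = 0.0286 for each). Of the counts of Myh1, Myh2, Myh4 and Myh7 together, Myh7 took 2.81%, 3.04%, 0.717% and 0.788% under PTU. It took 0.505%, 0.865%, 0.736% and 0.485% at 6 h and 0.143%, 0.134%, 0.127% and 0.132% at 24 h. The 95% Wilson intervals of the 24 h libraries reached from 0.0791% to 0.203%, below those of all other libraries, and cover counting error only.

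The myosin rows share sequence, and how reads that match several of them were counted is not stated, so their counts are uncertain. At 24 h Myh7 had 1.59 to 1.72 counts per 1000 Myh4 counts, and Myh6, the heart alpha myosin next to Myh7, had 1.52 to 1.58. The Myh7 and Myh6 counts were thus nearly the same there, 899 to 972 Myh6 counts per 1000 Myh7 counts, against 271 to 737 under PTU. Myh8, the perinatal myosin, kept 49.6 to 100 counts per 1000 Myh4 counts over all 12 libraries. How many of the Myh7 counts at 24 h came from reads that also match Myh4 was not tested. Among the fast motors, Myh4 over Myh2 was 4.62, 4.59, 8.22 and 12.0 under PTU, 8.6, 5.7, 11.8 and 4.28 at 6 h, and 14.1, 8.85, 8.92 and 12.4 at 24 h, and the groups overlapped (0.68 ± 0.38 at 24 h against PTU, exact p = 0.114).

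**Figure D4:**
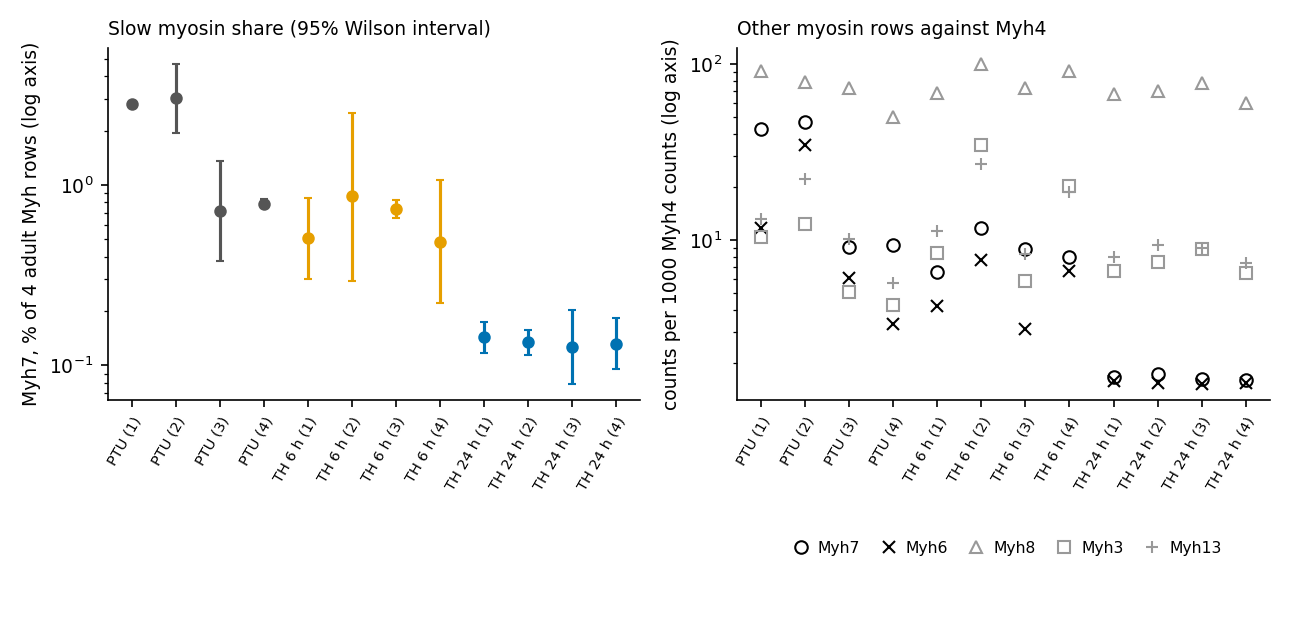
Left, Myh7 as a percent of the counts of Myh1, Myh2, Myh4 and Myh7 in each library, on a log axis with 95% Wilson intervals. The 24 h libraries lie between 0.127% and 0.143%. Right, counts of other myosin rows per 1000 Myh4 counts on a log axis, where Myh7 and Myh6 coincide in the 24 h libraries at 1.52 to 1.72.

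Of the remaining pairs, 1 did not overlap between PTU and 24 h and 3 did. Myoz1 over Myoz2, the Z-disc calsarcins of fast and slow fibres, was 5.32, 4.43, 9.40 and 19.5 under PTU and 255, 30.4, 20.5 and 111 at 24 h, without overlap (3.0 ± 0.97, exact p = 0.0286). These groups overlapped with 5 in place of 0.5 added to the counts (2.87) or with a linear fit on muscle content removed (2.62). At 6 h it was 15, 3.4, 28.6 and 4.78, and 24 h and 6 h overlapped (2.83 ± 1.10, exact p = 0.0571). Casq1 over Casq2, the calsequestrins, was 14.7, 0.897, 0.874 and 63.3 under PTU and 121, 138, 36.9 and 34.8 at 24 h (3.71 ± 1.63, exact p = 0.0857). Mybpc2 over Mybpc1, the myosin-binding proteins C, was 1.96, 2.04, 1.55 and 5.48 under PTU and 34.8, 3.8, 5.57 and 6.27 at 24 h (1.77 ± 0.82, exact p = 0.0571). Actn3 over Actn2, the fast and the general Z-disc actinin, was 8.45, 4.32, 4.83 and 28.3 under PTU and 48.5, 14, 10.1 and 23.4 at 24 h (1.26 ± 0.79, exact p = 0.171).

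Between 6 h and PTU the ratios were not separated. The mean ratio was higher than under PTU in 5 of 9 pairs of a fast with a slow member and the differences ran from -1.19 to 1.18, with exact p from 0.171 to 0.886. The groups overlapped in every pair. The errors were wide, 0.68 to 1.99 log2 units over these pairs. Slow counts were few in 3 of the 4 libraries at 6 h and in PTU replicates 2 and 3. Between 24 h and 6 h the mean was higher at 24 h in 9 of 9 pairs, and 5 did not overlap, of which 4 also did not overlap between 24 h and PTU. Leaving out a library can only keep or add pairs without overlap. It gave 1 such pair of the 11 between 6 h and PTU without replicate 2 or 3 of the 6 h group, 10 between 24 h and PTU without PTU replicate 4, and 10 between the TH times without replicate 3 of the 6 h group.

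The ratios were also compared within the libraries rich in muscle, a choice made after seeing the data. PTU replicates 1 and 4, the 6 h replicate 3 and the 4 libraries at 24 h had a muscle content above 2. These 7 libraries hold all 24 h libraries, so the 5 pairs without overlap could not overlap among them. Their differences between PTU and 24 h, which the choice left free, were from 2.67 for Myoz1 over Myoz2 to 5.99 for Mylpf over Myl2. The remaining pairs overlapped there and differed less. Their differences were 2.35 for Tnnc2 over Tnnc1, 2.25 for Myl1 over Myl3 and 1.33 for Mybpc2 over Mybpc1. Casq1 over Casq2 differed by 1.16, against 3.71 over all libraries of the 2 groups. Myh4 over Myh2 differed by 0.54 and Actn3 over Actn2 by 0.38. PTU replicate 1 and 24 h replicate 2 had similar Acta1 levels, 48880 and 63270 normalised counts. Between these 2 libraries Tnnt1 was 557 and 15.5, Tnni1 262 and 11.6, Tnnc1 235 and 14.6 and Myl2 953 and 20.4, whereas Tnnt3 was 20790 and 26400 and Mylpf 10610 and 13980. Slow troponin counts at 24 h were small, with Tnnt1 at 3 to 16 raw counts and Tnni1 at 5 to 12. The 6 h library rich in muscle had 66.4 normalised counts of Tnnt1 and a Tnnt3 to Tnnt1 ratio of 139, above the PTU range of 13.8 to 124 and below all 24 h values.

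**Figure D5:**
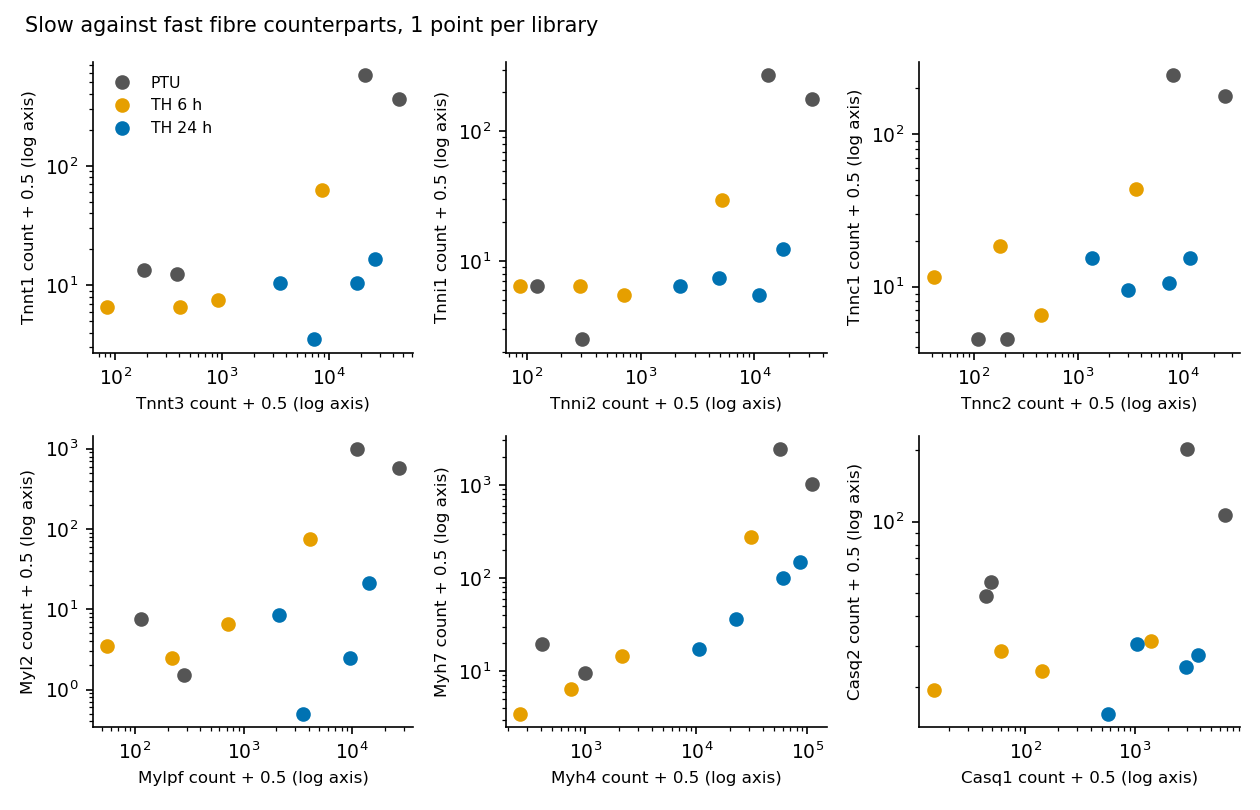
Count of the slow member plus 0.5 against the count of its fast counterpart plus 0.5, both on log axes, 1 point per library, for 6 pairs. PTU libraries rich in the fast transcript also had high slow counts (364 and 580 for Tnnt1), whereas the 24 h libraries had 3 to 16 Tnnt1 counts beside 3468 to 27225 Tnnt3 counts.

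Slow fibre genes outside the members were less clear. Of 7 other slow genes, 2 rose with muscle content, and their median slope was 0.05, against 1.27 for the members. At 24 h against PTU, 0 were higher and 1 was lower without the content term (Pln), where 17.1% of all genes were called. With the content term 0 passed (edgeR). Ankrd2, a stretch-responsive gene of slow fibres, had 137, 2.39, 0 and 52.9 normalised counts under PTU and 2.89, 242, 9.55 and 7.75 at 24 h, where replicate 2 was the highest of all libraries. Csrp3, a muscle LIM protein, had 282, 7.18, 8.12 and 144 under PTU and 7.72, 61.1, 9.55 and 36.5 at 24 h. Of 6 other fast genes, 2 rose at 24 h with content in the model, where 7.41% of all genes were higher. Pgam2 (the phosphoglycerate mutase of muscle) rose by 0.90 ± 0.17 (edgeR adjusted p = 0.00445) and Myh13, a myosin row, by 0.73 ± 0.22 (0.0403). Of 10 genes of developing muscle 5 were tested and 2 rose, beside the same 7.41% of all genes. Myh3 rose by 0.95 ± 0.25 (0.0210) and Myh8 by 0.99 ± 0.27 (0.0277), and both are again myosin rows. Pax7, a satellite cell gene, stayed at or below 6.73 normalised counts.

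Regulators of fibre type were tested as a list of their own. Of 12 such genes, 2 were higher and 1 was lower at 24 h against PTU without the content term, where 17.1% of all genes were called. With content in the model 2 were higher and 2 lower, where 7.41% of all genes were higher and 9.12% lower. Ppargc1a, a coactivator of mitochondrial genes, had 61.5 to 90.2 normalised counts under PTU, 583 to 689 at 6 h and 281 to 504 at 24 h, a rise of 2.38 ± 0.18 at 24 h (adjusted p = 8.87e-06). Esrrg, an estrogen-related receptor of oxidative fibres, had 12.0 to 35.7 under PTU and 81.9 to 213 at 24 h (2.01 ± 0.37, adjusted p = 0.00308). Vgll2, a cofactor of slow fibre genes, rose with muscle content and had 111, 1.20, 0 and 121 normalised counts under PTU and 2.89, 29.1, 3.18 and 4.43 at 24 h. At 6 h, where 3 of 4 libraries were poor in muscle, Esrrg had 85.3 to 108 normalised counts. Neither Ppargc1a nor Esrrg was among the genes that rose with content.

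Marker transcripts of other cell types were compared as well. Brown adipocyte markers summed to 41.8 to 100.4 CPM under PTU, 173 to 363 at 6 h and 246.5 to 832 at 24 h, and 4 of 6 tested, Ppargc1a among them, were higher at 24 h. Adipocyte markers were lower in 3 of 6 at 24 h, and 0 of 5 leukocyte and 0 of 3 endothelial markers were called (edgeR), with 2 at an unadjusted p under 0.05 and adjusted p from 0.132. Markers of stratified epithelium summed to 0.112 to 18.3 CPM under PTU, 0.824 to 131 at 6 h and 0.0898 to 0.361 at 24 h, and Krt15 was at 0 in all 4 libraries at 24 h. Of these 4 markers, 1 was lower at 24 h against PTU (Krt5, edgeR adjusted p = 0.0393), where 17.1% of all genes were called. Between the TH times 3 were lower at 24 h, where 7.41% of all genes were called. Heart muscle markers summed to 2.44 to 38.5 CPM under PTU, 2.70 to 8.78 at 6 h and 5.77 to 22.4 at 24 h. With content in the model, Myh6 was lower at 24 h (-1.47 ± 0.36, adjusted p = 0.0170) and Actc1 was higher (1.61 ± 0.49, adjusted p = 0.0409). The part of these cell types in the ratios was not tested.

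Some members overlap other genes, and the counting did not state its use of strand. In GENCODE M21 exons of Myh7 overlap those of Mhrt, Tnnc2 those of Ube2c, Myl2 those of Ccdc63, Myl3 those of Pth1r and Mb those of Apol6, all on the opposite strand. Tnnt3, Tnnt1, Tnni2, Tnni1, Tnnc1, Mylpf, Casq2, Myoz1 and Myoz2 overlap no exon of another gene in this annotation. On GRCm38, Tnnt3 lies at chr7:142498836-142516009 and Tnni2 at chr7:142441808-142444410, while Tnnt1 lies at chr7:4504570-4516382, Tnni1 at chr1:135779434-135810989 and Casq2 at chr3:102086415-102146514.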

How the data were processed

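RNA of WAT was extracted with Trizol, and the authors made libraries from it (Lexogen SENSE kit for total RNA) for a NextSeq 500. Per the labels and the study's methods, reads were aligned to GRCm38 (mm10) with Bowtie2 2.2.6.2, those of quality under 10 were dropped, and htseqcount gave the reads of each gene. The deposited values used here are raw counts of 47643 rows in 12 libraries. Of the rows with a mean count above 100, 86 copied another row within 2%, among them no listed gene. Rows with a lower mean were not screened, among them Tnnt1, Tnni1, Tnnc1, Myl3, Casq2 and Myoz2. Left out were 15 rows whose names were turned into dates (at most 0.0825% of a library). The annotation used by the authors and the use of strand are not given in the sources used here.

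Counts were scaled by TMM (factors 0.917 to 1.11), and the 17928 genes whose normalised counts averaged over 10 entered the quasi-likelihood test of edgeR 4.0.16 in R 4.3.3, with Benjamini-Hochberg adjustment over all of them and a threshold of 0.05. A further model added muscle content (12 genes, log2 CPM with a prior count of 2). Ratios were log2((count + 0.5)/(count + 0.5)), compared by exact two-sided permutation tests (70 arrangements) and adjusted over 33 tests. Errors of fitted changes and of mean differences are standard errors, with 4 libraries in each group. DESeq2 1.42.0, other filters, other content measures, a replicate block and leaving out each library were alternatives. The scripts were tested on simulated data. The members, lists and tests were chosen with earlier results of these data known, and the genes named are members and genes of those lists. Replicates differed by more than counting noise (chi-square per degree of freedom 9.85 to 87.1). A result on a listed regulator is not reported here.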

Additional observations from a re-analysis of the deposited data

Results flagged for a closer look

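Of 144 groups of 4 values checked for a library far from the other 3, 5 were marked, and chance marks about 1 in 20 such groups. At 24 h the log2 ratio of Tnnt3 to Tnnt1 was 8.37 in replicate 3 against 10.7 to 11 in the others, and that of Myl1 to Myl3 was 10.9 in replicate 1 against 7.96 to 8.44. At 6 h replicate 3, the library rich in muscle, had log2 (normalised count + 1) of 6.07 for Tnnt1 against 2.54 to 3.14, and of 5.0 for Tnni1 against 2.54 to 2.72. Actn2 was 10 in replicate 2 at 24 h against 7.49 to 7.58. The difference between the TH times, tested with muscle content in the model, was -3.87 for Myl2, -2.12 for Myh7 and -2.82 for Tnnt1.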

How the results depend on the processing

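Between 24 h and PTU, 5 pairs did not overlap (5 to 10 when 1 library was left out), 4 members were called without content (1 to 5) and 11 with it (8 to 17). Between 24 h and 6 h these were 5 pairs (5 to 10), 0 members (0 to 1) and 3 members (0 to 5). Between 6 h and PTU they were 0 pairs (0 to 1), 1 member (1 to 5) and 1 member. Replicate numbers did not pair the libraries (residual r from -0.472 to 0.394 over 12 same-numbered pairs, 6 of 24 best with their own number). For a replicate block, a pair was counted when its 4 same-numbered differences had the same sign, a looser rule than no overlap. By that rule 8 pairs were counted at 24 h and 1 at 6 h against PTU. The members called with the block were 1 without and 19 with content at 24 h against PTU. Between the TH times 1 was called with content. With DESeq2, content gave 18, 6 and 2 members for 24 h against PTU, 24 h against 6 h and 6 h against PTU, and the groups alone gave 4 at 6 h. With no filter on low counts 7 were called with content between the TH times and 4 without it at 6 h. Fits of 2 groups alone called 2 at 24 h against PTU and 1 between the TH times. Removing a linear fit on content gave 4 pairs at 24 h against PTU and 1 at 6 h. Mylpf over Myl2 and Myoz1 over Myoz2 were not among these 4, which thus include a pair that overlapped before. Adding 5 in place of 0.5 to the counts gave 4 pairs at 24 h against PTU and 4 between the TH times. In the 7 libraries rich in muscle, chosen after seeing the data, 5 pairs did not overlap at 6 h (1 library against 2), and the members called were 8, 1 and 2 without content and 4, 0 and 0 with it, in the same order of comparisons as for DESeq2. No alternative turned the direction of the member changes and ratios that were recomputed, which were those called, the largest change of each comparison and the pairs without overlap. Most slow members had counts under 20 in PTU replicates 2 and 3 and in most libraries at 6 h and 24 h. This limits the precision, and the cause of these shifts was not tested.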
